A study of Mus musculus with 4 samples.

Results

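Tubulin mRNAs were compared between dividing progenitors and newborn neurons of the medial ganglionic eminence (MGE), the ventral forebrain zone that gives rise to many inhibitory interneurons. The 10 genes Tuba1a, Tuba1b, Tuba1c, Tubb2a, Tubb2b, Tubb3, Tubb4b, Tubb5, Tubb6 and Tubg1 were taken by their symbols from the 32285 genes of the count matrices. The MGE of e14.5 mouse embryos of a mixed C57/BL6 ICR strain had been profiled by droplet RNA sequencing of single cells (10x Genomics). Of the 4 libraries, 2 carried the label St18(-/-), null in the following, and 2 the label wildtype (WT). The null embryos carried a germline E2a-Cre deletion, in the whole animal, of the floxed exons 9 and 10 of St18, a zinc finger transcription factor. Null and WT embryos came from heterozygous parents, and MGE was pooled by genotype before dissociation. The libraries of a genotype are described as biological replicates, and how many embryos each pool held was not given in the sources used here. The p-values of null against WT thus measure the spread between these libraries. In comparisons with the library as a block, p-values rest on a spread per gene that all cell classes share. They do not measure how far a single class difference varies between the libraries.

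Microtubules are polymers of dimers of alpha- and beta-tubulin. Each of these proteins is encoded by several genes, the isotypes, whose products differ mainly at their tails, where enzymes add or remove chemical groups. Dividing cells build microtubules into the mitotic spindle from centrosomes, where gamma-tubulin nucleates them, and neurons use stable microtubules to extend and to supply axons and dendrites. Tubb3 (class III beta-tubulin, the TuJ1 antigen) is a standard marker of neurons, and Tuba1a, Tubb2b, Tubb3 and Tubb5 are known from human malformations of cortical development. The amount of tubulin mRNA is itself under feedback from free tubulin, through the ribosome-associated factor TTC5.

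Cells with at least 3000 UMIs (unique molecular identifiers, each counted as 1 captured mRNA molecule) and at most 10% mitochondrial UMIs were kept, which gave 6631, 3878, 4511 and 4011 cells in null replicate 1, null replicate 2, WT replicate 1 and WT replicate 2. Lists of 4 values follow this order throughout. The libraries held between 70991150 and 92984713 UMIs in all barcodes, and pairs of libraries shared between 4 and 11 cell barcodes. After 764 cells with high doublet scores (4.01%) were left out, classes were cut from summed marker UMIs in cells thinned to 3000 UMIs, with no tubulin gene in any marker list. Cells with at least 3 UMIs of 18 S-phase or 18 G2/M genes and fewer than 10 UMIs of 10 neuron genes were dividing progenitors (6819 cells), split into G2/M (at least 3 G2/M UMIs, 5745 cells) and S phase (1074 cells). Cells with fewer than 3 UMIs of both cycle lists and at least 5 neuron UMIs were neurons (7773 cells), split into early (3044), middle (2263) and late (2466) stages at 13 and 18 neuron UMIs. Progenitors without cycle markers, which had fewer than 3 UMIs of both cycle lists, fewer than 5 neuron UMIs and at least 5 UMIs of 7 progenitor genes, numbered 147. The G2/M class held a median of 7 S-phase UMIs and thus also cells that were still in S phase. The 3179 cells with both cycle and neuron markers (17.4%) entered no class. The cuts pass through a continuum, with 1744 neurons (22.4%) within 1 UMI of a stage cut and 359 dividing progenitors (5.26%) at the cycle cut. Dividing progenitors had a median of 9062 UMIs and neurons of 6042. All 6 genes of a list of ventral forebrain factors (Nkx2-1, Lhx6, Lhx8, Dlx1, Dlx2 and Dlx5) were detected in both groups in every library. Their summed levels lay between 1676 and 1885 units of CPM in dividing progenitors and between 1781 and 2030 in neurons. The Dlx genes among them are not particular to the MGE, so these values do not test MGE identity. CPM here are UMIs of a gene per 1000000 UMIs of the same class and library, and they were not divided by length because 1 molecule gives 1 UMI whatever its length.

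Tubulin mRNA took a larger part of the transcriptome in neurons than in dividing progenitors, and its isotype makeup was different. The 10 genes together made up 0.869% ± 0.096 (SD, n = 4 libraries) of the UMIs of dividing progenitors and 1.73% ± 0.23 of those of neurons, and 1.94% ± 0.29 at the late stage. Among the 3 alpha-tubulin genes, Tuba1a held 67.7% ± 2.4 of the UMIs in dividing progenitors and 96.6% ± 0.44 in neurons, while Tuba1b fell from 29.8% ± 2.1 to 3.32% ± 0.42 and Tuba1c from 2.57% ± 0.25 to 0.0956% ± 0.024. Among the 6 beta-tubulin genes, Tubb5 was the most abundant in dividing progenitors, at 51.8% ± 1.1, and Tubb2b in neurons, at 41.1% ± 1.3. The share of Tubb3 rose from 10.8% ± 0.33 to 19.3% ± 0.15 and that of Tubb2a from 1.36% ± 0.29 to 4.28% ± 0.62. The share of Tubb4b was 8.06% ± 0.79 in dividing progenitors and 0.974% ± 0.063 in neurons. For each of these shares the 4 libraries of one group lay apart from the 4 of the other. Shares are given without a test of their own.

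**Figure D1:**
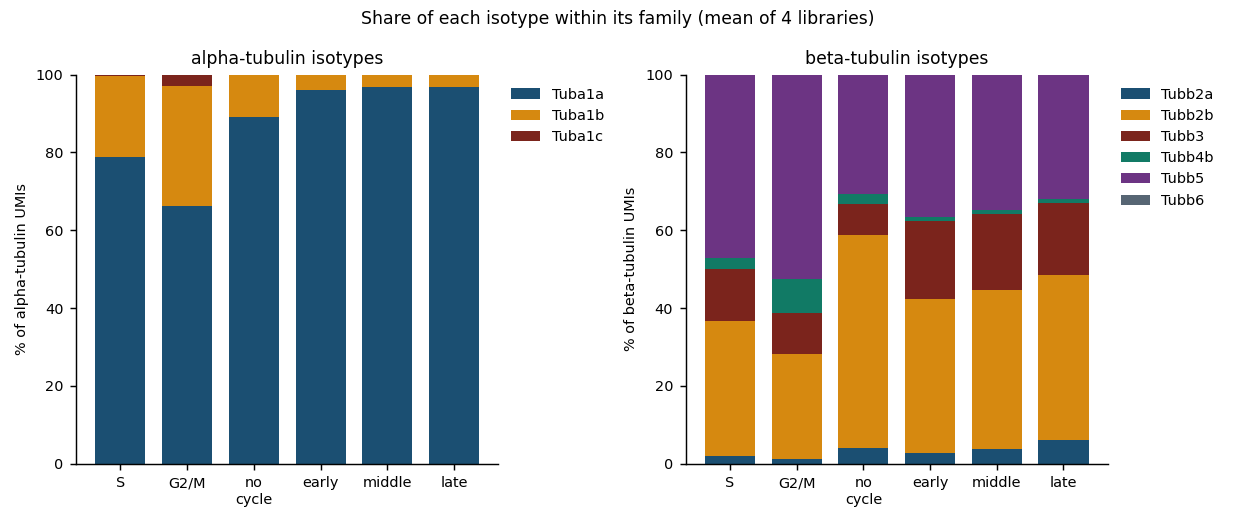
Share of each isotype (vertical axes, % of the UMIs of its family, mean of 4 libraries) among alpha-tubulin (left) and beta-tubulin (right) genes in S-phase and G2/M progenitors, progenitors without cycle markers and 3 neuron stages. Tuba1a grows from 66.2% in G2/M progenitors to 96.9% in late neurons, and Tubb4b is visible mainly in G2/M progenitors, at 8.74%.

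In the test across all genes (edgeR quasi-likelihood F-test on UMIs summed per library and class, with the library as a block and Benjamini-Hochberg adjustment over 12345 genes), all 10 genes passed an adjusted p of 0.05 between neurons and dividing progenitors. Tubb2a, Tubb3, Tubb2b, Tuba1a and Tubb5 were higher in neurons and Tubb6, Tuba1c, Tuba1b, Tubb4b and Tubg1 were lower. Tubb6 entered the test only through its level in G2/M progenitors. Differences between these cell groups were common, since 40% of all tested genes were called higher and 40.9% lower in neurons, so a call says little by itself. The median absolute log2 fold change over all genes was 0.53, and all 10 tubulin genes lay further from 0 than this. The fitted log2 fold changes weight the S and G2/M classes equally, whereas CPM of dividing progenitors are dominated by G2/M cells, so that ratios of CPM and fitted fold changes are not the same quantity for genes that differ between the phases.

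Tubb3 was present at 631, 460, 526 and 528 CPM in dividing progenitors and at 2379, 1711, 1984 and 1923 CPM in neurons. No library overlapped between the groups, and the ratio within a library lay between 3.64 and 3.77. The fitted log2 fold change was 1.84 ± 0.039 (SE, adjusted p = 1.05e-34). After thinning to 3000 UMIs, 68.5% of dividing progenitors had at least 1 Tubb3 UMI (95% exact interval 67.4 to 69.6%), against 98.7% of neurons and 24.6% (18.3 to 31.7%) of 171 erythroid cells, a cell type that should lack it and whose median depth was 11472 UMIs. The erythroid share ran from 10.3% to 43.2% in single libraries, with the highest in WT replicate 2, and was 18.1% without that library. The share in dividing progenitors was above the erythroid share in either case. Droplets with fewer than 100 UMIs, however, held Tubb3 at 1023 to 1281 CPM, above its levels in dividing progenitors. The part of free RNA in these levels was not tested. Dividing progenitors may hold up to 9 neuron UMIs, and 45.2% of them had at least 5, the minimum for neurons. Among the 3734 with fewer than 5, chosen after seeing the data, 53.5% (51.9 to 55.1%) had a Tubb3 UMI, at 359, 255, 308 and 322 CPM, and among the 421 with none 37.8% (33.1 to 42.6%) did, at 132 to 167 CPM. In WT replicate 2 the share of the latter, 38.9%, was below the erythroid one. Intervals and floors in the text cover counting error only. Tubb3 lies at chr8:123411424-123422015 on the plus strand (GRCm38). The alpha-tubulin genes are neighbours on chromosome 15, with Tuba1b at chr15:98931425-98934565 and Tuba1a at chr15:98949837-98953703 on the minus strand and Tuba1c at chr15:99029891-99038110 on the plus strand. Tubb2a (chr13:34074274-34078007) and Tubb2b (chr13:34126748-34130466) share the minus strand of chromosome 13, and Tubb4b (chr2:25222160-25224702), Tubb5 (chr17:35833921-35838306), Tubg1 (chr11:101119938-101126419) and Tubb6 (chromosome 18) stand alone. All 10 are annotated as protein coding.

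Tuba1a, the main alpha-tubulin of postmitotic neurons, was the most abundant tubulin mRNA in neurons. Its level was 2865, 2216, 2421 and 2413 CPM in dividing progenitors and 7904, 5597, 6486 and 6531 CPM in neurons, with a ratio between 2.53 and 2.76 within libraries. The fitted log2 fold change was 1.38 ± 0.025 (adjusted p = 2.76e-37). Tubb2b, a beta-tubulin abundant in the developing brain, rose from 1740, 1249, 1319 and 1239 CPM to 5225, 3638, 4256 and 3968 CPM, by 1.55 ± 0.027 on the log2 scale (adjusted p = 5.61e-38). Tubb2a, a closely related beta-tubulin encoded beside Tubb2b on chromosome 13, had the largest rise of the 10 genes. It stood at 67.9, 48.4, 71.6 and 80.2 CPM in dividing progenitors and at 489, 321, 462 and 506 CPM in neurons, and the fitted log2 fold change was 2.42 ± 0.040 (adjusted p = 1.61e-38). For all of these genes the lowest neuron library lay above the highest library of dividing progenitors. Tubb5, a beta-tubulin present in most cell types, was high in both groups. Its level of 2997, 2336, 2473 and 2466 CPM in dividing progenitors and 4012, 3129, 3579 and 3494 CPM in neurons gave a log2 fold change of 0.60 ± 0.026 (adjusted p = 6.27e-24), the smallest among the genes that rose.

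**Figure D2:**
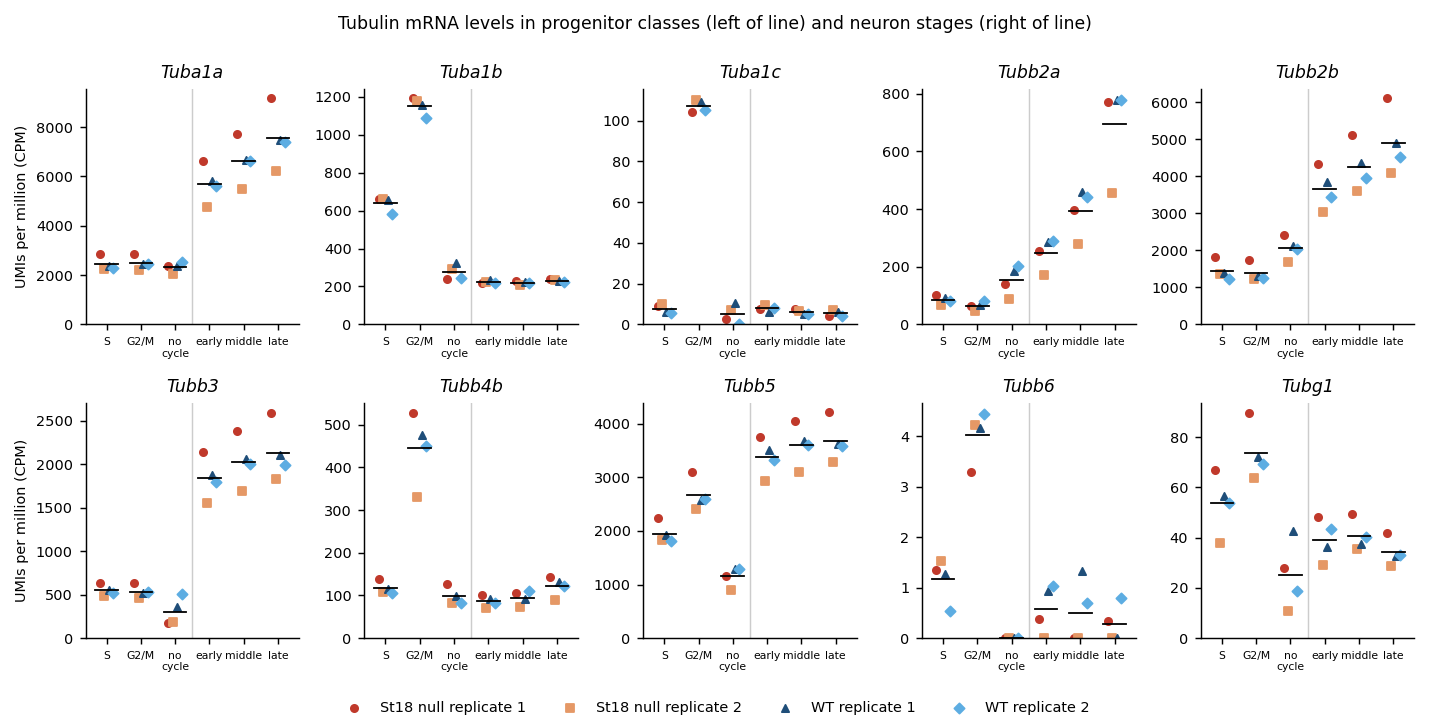
Level of each tubulin gene (vertical axes, CPM, linear and starting at 0) in S-phase and G2/M progenitors, progenitors without cycle markers and early, middle and late neurons. Each point is 1 library and each bar the mean of 4; Tubb2a climbs to between 456 and 779 CPM in late neurons, and Tuba1c reaches between 104 and 110 CPM only in the G2/M class among those shown.

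Tuba1b, Tuba1c and Tubb4b, an alpha-tubulin pair and a beta-tubulin found in many dividing cells, went the opposite way. Tuba1b stood at 1127, 1117, 1082 and 1013 CPM in dividing progenitors and at 230, 223, 229 and 218 CPM in neurons. The log2 fold change was -1.98 ± 0.025 (adjusted p = 3.12e-42). Tuba1c fell from 92.6, 98.6, 93.4 and 90.0 CPM to 6.23, 7.64, 5.89 and 5.88 CPM, a ratio between 0.0630 and 0.0775 within libraries, and by 2.21 ± 0.14 on the log2 scale in the fit (adjusted p = 1.33e-17), a size that depends on the floor of free RNA in neurons. Tubb4b was at 481, 306, 422 and 397 CPM in dividing progenitors and at 119, 79.6, 102 and 105 CPM in neurons, with a log2 fold change of -1.23 ± 0.041 (adjusted p = 8.78e-28). In none of these genes did the groups overlap, but dividing progenitors were mostly G2/M cells. In S-phase progenitors alone, Tubb4b at 106 to 137 CPM and Tuba1c at 5.47 to 10.2 CPM overlapped the neurons. Tuba1b, at 584 to 663 CPM, did not.

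The low levels in neurons have to be read against free RNA. In droplets with fewer than 100 UMIs, Tuba1c was at 44.9 to 57.9 CPM, Tuba1b at 566 to 690 CPM and Tubb4b at 289 to 364 CPM. Thinned to equal depth, 1.87% of neurons had a Tuba1c UMI (95% interval 1.58 to 2.19%), against 4.68% of erythroid cells (2.04 to 9.01%) and 3.15% (0.865 to 7.87%) of these without WT replicate 2. The erythroid share varied between libraries, from 0 of 39 cells in WT replicate 1 to 9.09% of 44 cells in WT replicate 2, on 8 cells with a UMI in all. The remaining Tuba1c in neurons could thus not be told apart from free RNA at this depth and is not read as expression. Whether erythroid cells make Tuba1c, Tuba1b, Tubb4b or Tubg1 themselves was not tested, so their shares may hold more than free RNA. Tuba1b was found in 48.2% of neurons (47.1 to 49.3%) and 18.7% of erythroid cells (13.2 to 25.4%), and in each library the share was higher in neurons. Tubb4b was found in 25.8% of neurons (24.9 to 26.8%) and 16.4% of erythroid cells (11.2 to 22.8%), or 11% of erythroid cells without WT replicate 2, but in WT replicate 2 itself the erythroid share of 31.8% was above the 26.0% of neurons. Tubg1, at 53.5 to 65.1 CPM in such droplets, was found in 11% of neurons (10.3 to 11.7%) and 2.92% of erythroid cells (0.956 to 6.69%), and in WT replicate 2 in 10.9% and 9.09%. The genes that rose in neurons have the same limit in dividing progenitors. Such droplets held Tuba1a at 4273 to 5277, Tubb2b at 2402 to 2987 and Tubb5 at 3202 to 3711 CPM. Tubb3 was at 1023 to 1281 and Tubb2a at 185 to 384 CPM. All 5 lay above the levels in dividing progenitors, and the part of free RNA in their folds was not tested.

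Tubb6 was close to the detection limit. It is a beta-tubulin that is sparse in brain, and dividing progenitors held 74, 67, 57 and 46 UMIs of it and neurons 4, 0, 9 and 9. Summed over libraries this was 3.56 CPM (95% Poisson interval 3.13 to 4.04) in dividing progenitors and 0.424 CPM (0.266 to 0.642) in neurons. The log2 fold change of -2.41 ± 0.47 (adjusted p = 1.55e-05) rests on these few molecules. Tubg1, the main gamma-tubulin, was at 86.9, 60.8, 69.5 and 67.1 CPM in dividing progenitors and at 46.1, 31.0, 35.6 and 38.8 CPM in neurons. The groups did not overlap, and Tubg1 fell by 0.77 ± 0.053 on the log2 scale (adjusted p = 5.24e-17). S-phase progenitors alone, at 37.8 to 67.0 CPM, overlapped the neurons.

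**Figure D3:**
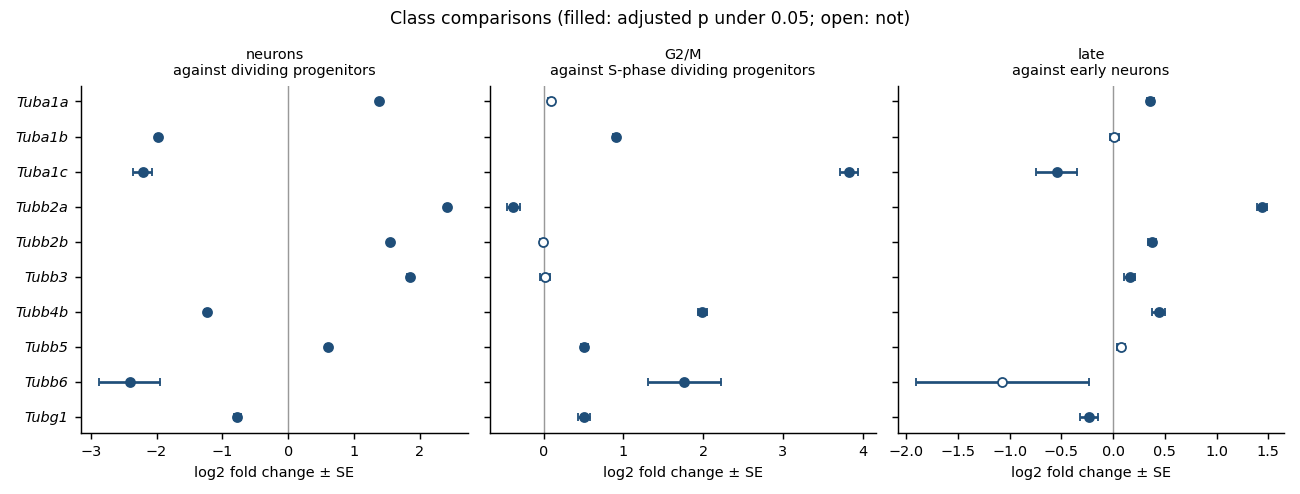
Fitted log2 fold change with its SE (horizontal axes) of the 10 tubulin genes in 3 class comparisons, filled where the adjusted p was under 0.05. Tuba1c, Tuba1b, Tubb4b, Tubb6 and Tubg1 lie left of 0 in neurons and right of 0 in G2/M progenitors, and Tubb2a shows the largest difference between late and early neurons, 1.44.

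Within dividing progenitors, the question was whether isotypes differed with the phase of the cycle. Of the 10 genes 6 were higher in G2/M than in S-phase progenitors and 1 was lower. Over all tested genes 14.7% were called higher and 14.1% lower. Tubb6, among the 6, entered the test only through its G2/M level. Tuba1c had the largest difference, with 9.14, 10.2, 5.96 and 5.47 CPM in S-phase and 104, 110, 109 and 105 CPM in G2/M progenitors. The S-phase values correspond to 27, 20, 14 and 10 UMIs, and 2.42% of thinned S-phase cells had one (1.59 to 3.53%), a share like that of neurons that could not be told apart from free RNA. The size of the fold thus depends on this floor. The fitted log2 fold change was 3.83 ± 0.12 (adjusted p = 4.54e-28). Tubb4b went from 137, 109, 115 and 106 CPM to 528, 331, 477 and 450 CPM, a log2 fold change of 1.99 ± 0.055 (adjusted p = 1.32e-29). Tuba1b rose by 0.91 ± 0.036 (adjusted p = 7.15e-24), from 663, 663, 658 and 584 CPM to 1192, 1176, 1159 and 1091 CPM. In all 3 genes the libraries of the phases lay apart.

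Tubb6 rose from 4, 3, 3 and 1 UMIs in the S class to 70, 64, 54 and 45 UMIs in the larger G2/M class. The log2 fold change was 1.76 ± 0.46 (adjusted p = 0.00311). Since Tubb6 entered the test only through the G2/M class, this p is not read. Tubb5 and Tubg1 rose by 0.51 each (SE 0.040 and 0.073, adjusted p = 4.39e-14 and 4.81e-07). For Tubb5 the S-phase libraries ran from 1807 to 2235 CPM and the G2/M libraries from 2403 to 3104 CPM without overlap, whereas for Tubg1 they ran from 37.8 to 67.0 and from 63.8 to 89.7 CPM and overlapped, although each library rose. Tubb2a was lower in G2/M by 0.38 ± 0.078 (adjusted p = 0.000190), a call that was lost when phases were set by the larger of the marker sums (log2 fold change -0.0013, adjusted p = 0.992). The 3 remaining genes, Tuba1a, Tubb2b and Tubb3, had log2 differences of 0.09 ± 0.037, -0.01 ± 0.040 and 0.02 ± 0.062 that did not pass (adjusted p between 0.0680 and 0.901). When phases were set by the larger sum, an alternative chosen after seeing the data, these genes were called higher in G2/M instead, by 0.29, 0.34 and 0.35, Tubb6 was not called (0.57, adjusted p = 0.101) and Tubg1 stood at -0.05, so no order between the phases is read for Tuba1a, Tubb2a, Tubb2b, Tubb3, Tubb6 or Tubg1.

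A finer division by the number of G2/M marker UMIs in a dividing cell gave the same picture for the leading genes. From 0 to 2 up to 40 or more such UMIs, the mean over libraries of Tuba1c went from 7.69 to 14.9, 31.2, 59.1, 131 and 311 CPM, and that of Tubb4b was 161, 322, 434, 602 and 824 CPM in the bins above the first. Tuba1b reached its highest mean, 1451 CPM, at 30 to 39 UMIs and was at 1274 ± 69 CPM (SD, n = 4) in the last bin. Tubb3 had a low of 415 ± 81 CPM at 20 to 29 UMIs and was at 702 ± 90 CPM in the last bin. Each bin held at least 125 cells of every library. The bins share their cells with the class comparison and are given as a description.

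**Figure D4:**
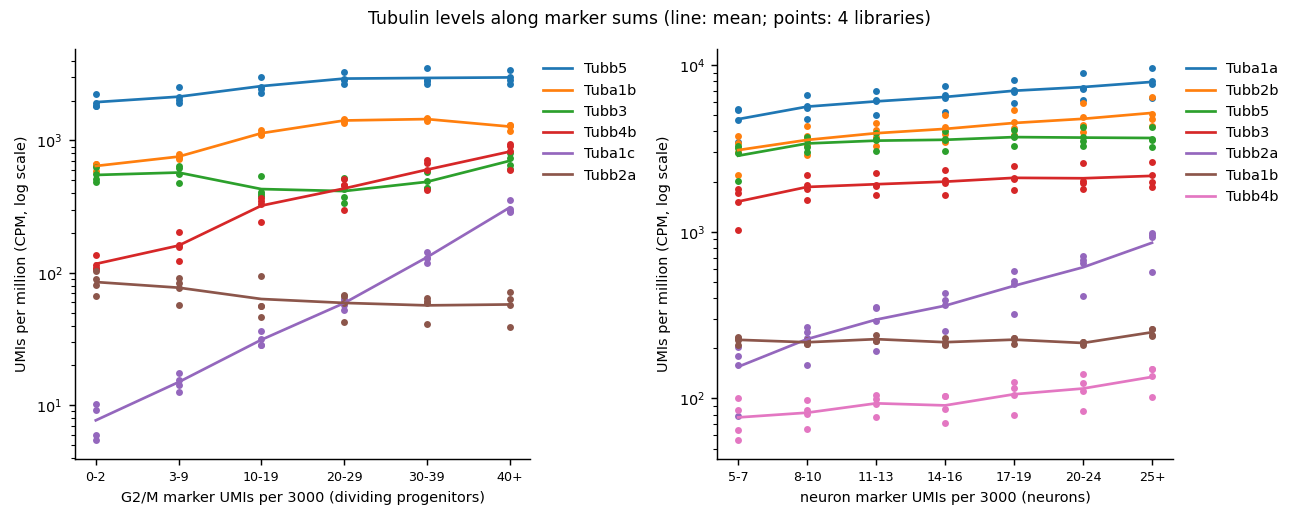
Level (vertical axes, CPM on a log scale) along the G2/M marker sum of dividing progenitors (left) and along the neuron marker sum of neurons (right), with 1 point per library and a line through the means. On the left Tuba1c rises steeply to 311 CPM and Tubb4b to 824 CPM; on the right Tubb2a climbs from 155 to 859 CPM while Tuba1b stays between 215 and 250 CPM.

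The promoters of Tubb4b, Tuba1b and Tuba1c are shown because these genes rose together in G2/M, and that of Tubb3 for contrast. They come from RefSeq (GRCm38.p6, 250 bases before to 50 after the start site), in a table in which 7 of the 10 genes were matched. Promoters of Tubb2b, Tubb6 and Tubg1 were not used here. The letters CCAAT (or ATTGG on the other strand), the core of the site of the NF-Y factor, and TTTGAA (or TTCAAA), the core of the cell cycle genes homology region, were searched on both strands and are in capitals. Of 32851 promoters of the same length, 37.4% held CCAAT, 11.7% held it more than once and 17.9% held TTTGAA. The windows lie at chr2:25224653-25224952 (minus strand), chr15:98934341-98934640 (minus), chr15:99029641-99029940 (plus) and chr8:123411303-123411602 (plus).
Tubb4b: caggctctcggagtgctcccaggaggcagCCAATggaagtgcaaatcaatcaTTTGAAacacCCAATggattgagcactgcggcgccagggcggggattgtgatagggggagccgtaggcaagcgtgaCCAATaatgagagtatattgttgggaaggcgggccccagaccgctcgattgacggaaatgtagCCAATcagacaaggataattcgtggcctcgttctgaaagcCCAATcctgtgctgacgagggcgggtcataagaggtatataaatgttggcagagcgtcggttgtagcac
Tuba1b: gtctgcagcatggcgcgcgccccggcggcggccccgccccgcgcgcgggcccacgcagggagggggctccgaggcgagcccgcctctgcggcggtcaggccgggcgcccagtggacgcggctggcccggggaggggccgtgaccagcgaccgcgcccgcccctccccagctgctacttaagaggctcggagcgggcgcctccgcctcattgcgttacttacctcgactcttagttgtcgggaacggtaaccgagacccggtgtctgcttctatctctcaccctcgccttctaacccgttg
Tuba1c: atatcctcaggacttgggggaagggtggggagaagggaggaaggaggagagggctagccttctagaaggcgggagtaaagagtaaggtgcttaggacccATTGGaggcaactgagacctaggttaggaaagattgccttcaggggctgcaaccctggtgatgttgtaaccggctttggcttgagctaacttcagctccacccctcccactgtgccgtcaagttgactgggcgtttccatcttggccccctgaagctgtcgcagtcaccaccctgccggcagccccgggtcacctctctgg
Tubb3: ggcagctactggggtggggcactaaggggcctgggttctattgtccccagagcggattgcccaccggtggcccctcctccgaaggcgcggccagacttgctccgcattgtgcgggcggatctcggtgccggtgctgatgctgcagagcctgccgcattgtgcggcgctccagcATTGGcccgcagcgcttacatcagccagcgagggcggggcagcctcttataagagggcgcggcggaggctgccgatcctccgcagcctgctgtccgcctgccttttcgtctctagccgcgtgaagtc
The Tubb4b window held CCAAT 5 times, with first bases at -221, -188, -122, -59 and -19 from the start site, and TTTGAA once, at -198, without overlap. Tuba1c and Tubb3 held 1 CCAAT each, at -151 and -77, both read as ATTGG, and Tuba1b held neither motif. Of the windows not printed, Tubb5 held 2 CCAAT, Tuba1a 1 and Tubb2a none, and none of these held TTTGAA. Genes that rose in G2/M thus included windows with many, 1 and no matches.

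Along the neuron stages, 5 genes were higher in late than in early neurons and 2 were lower, where 22.4% of all tested genes were called higher and 23% lower. Tubb2a rose the most, from 254, 169, 285 and 287 CPM in early to 397, 277, 458 and 442 CPM in middle and 770, 456, 779 and 779 CPM in late neurons. Each library rose at each step, and the log2 fold change from early to late was 1.44 ± 0.048 (adjusted p = 2.62e-25). Along the neuron marker sum, its mean went from 155 CPM at 5 to 7 UMIs to 859 ± 193 CPM at 25 or more. Tubb4b, lower in neurons than in dividing progenitors, was nevertheless higher in late neurons, at 144, 90.3, 131 and 122 CPM against 102, 71.1, 91.3 and 83.3 CPM in early neurons (0.44 ± 0.061, adjusted p = 1.04e-07). These levels are below those of 289 to 364 CPM in droplets with fewer than 100 UMIs, and the part of free RNA in this difference was not tested. Tubb2b and Tuba1a rose by 0.37 ± 0.038 and 0.36 ± 0.036 (adjusted p = 8.36e-11 and 4.27e-11) and Tubb3 by 0.16 ± 0.054 (adjusted p = 0.0138). For all of these genes the ranges of neighbouring stages overlapped between libraries, while Tubb2a, Tubb2b and Tuba1a rose in 4 of 4 libraries from early to middle and again from middle to late. Without the library as a block, 2 of the 10 genes passed in place of 7.

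Tuba1c and Tubg1 were lower in late neurons, by 0.55 ± 0.20 and 0.23 ± 0.085 on the log2 scale (adjusted p = 0.0202 and 0.0227). The Tuba1c levels concerned, 4.23 to 9.59 CPM in the single libraries, are those that could not be told apart from free RNA above. Tuba1b, Tubb5 and Tubb6 did not pass, with log2 differences of 0.01 ± 0.043, 0.08 ± 0.038 and -1.07 ± 0.84. The Tuba1b level was almost the same at each stage, 223 ± 6.9, 219 ± 8.8 and 231 ± 7.6 CPM (SD, n = 4).

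Progenitors that lacked cycle markers were few, with 52, 26, 42 and 27 cells, and stand for progenitors outside of S phase and G2/M. Against dividing progenitors, 2 of the 10 genes were higher and 7 lower, where 11.5% of all tested genes were called higher and 17.4% lower. Tubb2a and Tubb2b were higher, by 0.83 ± 0.15 and 0.37 ± 0.048 on the log2 scale (adjusted p = 2.83e-05 and 5.15e-08). Tubb2b made up 54.8% ± 4.8 of the beta-tubulin UMIs of these cells. Tubb5 fell to 1157, 900.1, 1298 and 1290 CPM (-1.17 ± 0.054, adjusted p = 5.93e-21), below its level in both dividing progenitors and neurons. Tuba1b was at 240, 293, 324 and 245 CPM (-1.82 ± 0.071, adjusted p = 2.92e-23), close to its level in neurons. Tubb3 spread widely, at 176, 181, 356 and 504 CPM, with both WT libraries above both null libraries and no test of that difference, and was lower than in dividing progenitors by 1.18 ± 0.12 (adjusted p = 2.89e-10) in the fit. The ratios within libraries were 0.279, 0.393, 0.676 and 0.954, and the ranges of the groups overlapped. These progenitors have fewer than 5 neuron UMIs by definition and dividing ones up to 9. Against dividing progenitors with fewer than 5, given above, Tubb3 was lower in both null and higher in both WT libraries, so no direction is read for it. The same cut applies to every gene of this comparison. Tubb4b and Tubg1 were also lower, with log2 fold changes of -1.34 and -1.47. The Tubg1 value rests on few molecules, at 10.8 to 42.7 CPM, with ratios within libraries of 0.323, 0.178, 0.614 and 0.282. Tuba1c passed too, but on 1, 2, 3 and 0 UMIs in these cells, a level that could not be told apart from free RNA, so no fold is given. Tuba1a was lower by 0.27 ± 0.044 (adjusted p = 5.12e-06) in the fit. The Tuba1a ratios within libraries were 0.828, 0.923, 0.985 and 1.04, so that WT replicate 2 went the other way, and the ranges of the groups overlapped. Tubb6 had 0 UMIs in all 4 libraries, which over 1108269 UMIs allows up to 2.71 CPM (3 counts over all libraries), so a level like that of S-phase progenitors was not detectable at this depth.

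How far isotypes can be told apart depends on their sequences. For each tubulin gene, only the longest protein-coding transcript was cut into windows of 60 bases. Windows that occur letter for letter in a transcript of another gene were counted in the GENCODE M21 annotation. No window of Tubb3, Tubb5 or Tubb6 was shared. Of the Tuba1a, Tuba1b and Tuba1c windows 70.7%, 73.0% and 59.1% were shared, mainly with one another and with pseudogenes, and in the last 400 bases 42.2%, 51.9% and 57.8%. Tubb2a shared 46.7% of its windows and Tubb2b 36.2%, with each other and with the pseudogene Tubb2a-ps2, and in the last 400 bases 29.9% and 0%. Tubb4b shared 45.3%, with Tubb4b-ps1, Tubb4b-ps2 and Gm16165, and Tubg1 10.3%, with Tubg2. Cell Ranger counts reads that map to 1 gene only, and which end of the mRNA was read was not given in the sources used here. The levels of the alpha-tubulin genes, Tubb2a, Tubb2b, Tubb4b and Tubg1 are therefore uncertain against those of other genes, and so are the isotype shares. A comparison of 1 gene between classes uses the same windows on both sides only if the classes use the same transcript ends. Whether they do was not tested.

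The genotype comparison was 2 null against 2 WT libraries within each cell group. None of 10 tubulin genes in dividing progenitors passed (edgeR quasi-likelihood F-test, where 0.0448% of all genes were called in either direction), and none of 9 in neurons (0.0456%), Tubb6 being too low to be tested there. At an unadjusted p under 0.05 there was 1 gene in dividing progenitors, Tubb2a, beside 17.2% of all genes, and none in neurons, beside 16.3% of all genes, and DESeq2 called none in either group. Tubb2a had levels scaled by trimmed means (TMM) of 66.8, 43.2, 76.6 and 85.6 CPM in dividing progenitors and 480, 297, 492 and 527 CPM in neurons. Both null libraries lay below both WT libraries, and the log2 fold changes were -0.56 ± 0.19 (adjusted p = 0.215) and -0.39 ± 0.19 (adjusted p = 0.351). Such an order, with both null below both WT, held for 3 tubulin genes in dividing progenitors (Tubb2a, Tuba1c and Tubb6) and 26.2% of all genes, and for 2 in neurons (Tubb2a and Tuba1b) and 25.1% of all genes. In plain CPM this order was kept only by Tubb2a in dividing progenitors. The log2 fold changes of the other genes ran from -0.32 to 0.05 in dividing progenitors and from -0.20 to 0.09 in neurons. The genotype effect in neurons differed from that in dividing progenitors for none of the 10 genes after adjustment (0.27% of all genes were called), and at an unadjusted p under 0.05, which 8.5% of all genes had, for 2, Tubb2a (0.20 ± 0.072, adjusted p = 0.372) and Tubb6 (-2.33 ± 0.77, adjusted p = 0.302). Tubb6, too low to be tested in neurons alone, entered this test through dividing progenitors, so its value is not read.

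For 6 genes the libraries labelled null lay on opposite sides of WT. For Tuba1a, Tubb2b, Tubb3, Tubb4b, Tubb5 and Tubg1, null replicate 1 lay above and null replicate 2 below both WT libraries, in dividing progenitors (8.93% of all genes) and again in neurons (8.22% of all genes). In plain CPM the order was the same but for Tubb2b in dividing progenitors, where null replicate 2 was above WT replicate 2. Tubb3 in neurons is an example, with scaled levels of 2335, 1581, 2111 and 2002 CPM. In neurons Tuba1b spread less, at 225, 206, 243 and 227 CPM. Without null replicate 1, 8 genes passed in dividing progenitors and 7 in neurons, all of them lower in null, beside 4337 of 13723 and 3373 of 13342 of all genes. Without null replicate 2, 6 passed in dividing progenitors, 5 of them higher and Tubb2a lower, beside 1931 of 13611 genes, and none in neurons, beside 937 of 13280. These fits leave 1 null library, which is assumed to vary like the others, and no direction of a genotype effect is read for these genes.

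**Figure D5:**
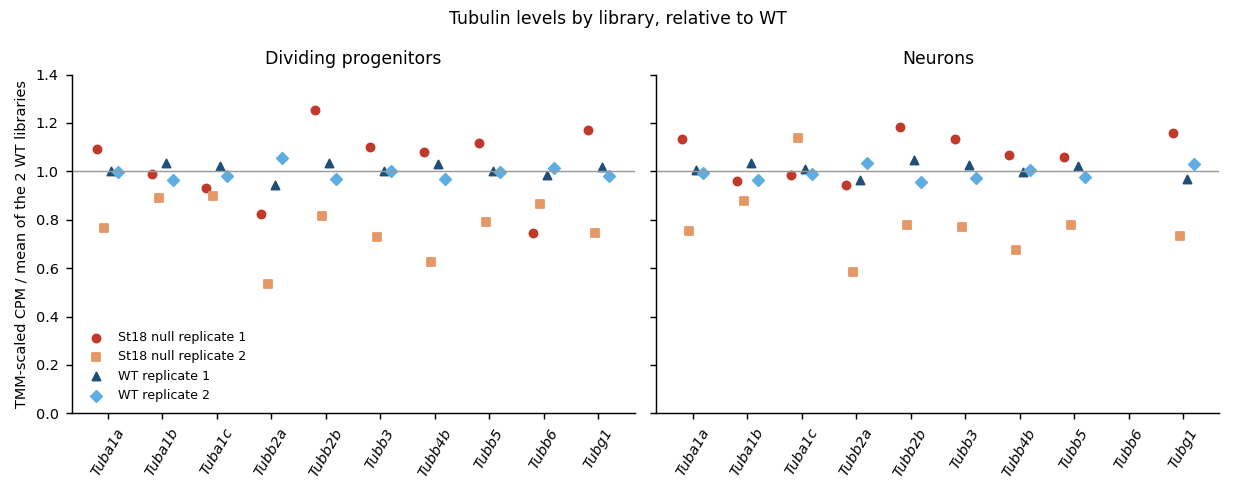
Level of each tubulin gene relative to the mean of both WT libraries (vertical axis, ratio of TMM-scaled CPM, starting at 0) in dividing progenitors (left) and neurons (right), with 1 point per library; Tubb6 was not tested in neurons. For 6 genes null replicate 1 lies above and null replicate 2 below both WT libraries, and Tubb2a lies below WT in both null libraries.

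Other properties also differed between the libraries, and their part in these values was not tested. Null replicate 2, the lowest library for the 6 genes, had a median of 12332.5 UMIs in dividing progenitors and 8262.5 in neurons, against 7947.5 to 9238 and 5554.5 to 5962 in the other libraries. From it 489 of 4367 barcodes were removed for their mitochondrial share, against 67 to 185 of 4097 to 6816 in the others. St18 UMIs stood at 23.4, 71.9, 40.8 and 52.6 CPM in neurons, with null replicate 2 above both WT libraries and null replicate 1 below them, which does not follow the labels. Counts per gene do not separate the deleted exons from the rest and so do not show the deletion itself. Xist was at 571 and 1456 CPM in neurons of the null and at 0.176 and 0.0949 CPM in those of the WT libraries, so that sex and genotype cannot be told apart. The summed level of 6 pallial markers in neurons was 7.40, 54.1, 2.64 and 7.49 CPM. Early neurons made up 36.0%, 30.1%, 50.1% and 39.5% of the neurons.

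Lists of genes that act on tubulin were counted in the neuron comparison, in which 40% of all genes were called higher and 40.9% lower. Of 10 other tubulin genes 3 were abundant enough to be tested. Tubb4a, a beta-tubulin of mature brain, rose from 13.4 ± 1.9 to 94.0 ± 7.3 CPM (log2 fold change 2.48 ± 0.054, adjusted p = 3.21e-34), Tubg2, a second gamma-tubulin, from 1.31 ± 0.11 to 11.6 ± 1.5 CPM (2.91 ± 0.18, adjusted p = 1.83e-17), and Tube1, the epsilon-tubulin of centrioles, fell from 14.8 ± 1.9 to 4.69 ± 0.66 CPM (-1.5 ± 0.13, adjusted p = 6.62e-14). Tubg2, at 1.20 to 1.46 CPM in dividing progenitors, entered the test only through its level in neurons, so its p is not read. The part of free RNA in these levels was not tested. Tuba3a, Tuba3b, Tuba4a, Tuba8, Tubal3, Tubb1 and Tubd1 were not tested.

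Of 11 genes of the gamma-tubulin ring complex and its partners, 9 were lower in neurons, 1 was higher and 1 did not pass, with a median log2 fold change of -0.57 against 0.00 over all genes and 40.9% of all genes lower. Nedd1, which anchors the complex at centrosomes and spindles, fell from 35.2 ± 3.8 to 8.20 ± 0.80 CPM (-1.94 ± 0.099, adjusted p = 3.32e-21). Haus1, a subunit of the augmin complex, fell from 50.5 ± 3.0 to 14.9 ± 2.8 CPM (-1.74 ± 0.065, adjusted p = 5.82e-26). Cdk5rap2, a centrosome protein, and Tubgcp2, a core subunit, fell by 0.95 ± 0.056 and 0.82 ± 0.041 (adjusted p = 3.84e-19 and 1.38e-21). Of 15 tested genes of 17 for enzymes that modify tubulin, 11 were higher in neurons and 2 lower (median 0.73), where 40% of all genes were higher. Ttll1, a polyglutamylase subunit, rose from 14 ± 1.5 to 49.4 ± 4.0 CPM (1.71 ± 0.069, adjusted p = 1.01e-24), Atat1, which acetylates alpha-tubulin, from 89.9 ± 8.5 to 252 ± 33 CPM (1.39 ± 0.031, adjusted p = 6.78e-34), and Ttll7, a polyglutamylase, by 1.16 ± 0.066 (adjusted p = 1.54e-19). Ttll4, another polyglutamylase, went against this and fell by 1.38 ± 0.074 (adjusted p = 1.84e-20).

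Of 20 genes for tubulin folding, 10 were lower, 6 higher and 4 did not pass, with a median of -0.07, so that the shares in each direction were near those of all genes. The chaperonin subunits Cct3 and Cct6a fell by 0.62 ± 0.024 and 0.47 ± 0.024 (adjusted p = 1.42e-25 and 1.85e-21), and the tubulin cofactors Tbce and Tbcc rose by 0.58 ± 0.059 and 0.58 ± 0.057 (adjusted p = 7.62e-12 and 3.76e-12). Ttc5, the sensor of tubulin autoregulation, was at 56.7 ± 3.7 CPM in dividing progenitors and 59.1 ± 7.4 CPM in neurons, a log2 difference of 0.01 ± 0.048 (adjusted p = 0.871).

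Genes with the most similar pattern were found by the Pearson correlation of log2(CPM + 1) over the 24 sums of 4 libraries by 6 classes, among 6526 other genes with a mean of at least 20 CPM. The sums share libraries and cells, so the values are a description. Nearest to Tubb3 were Tagln3 (r = 0.98), Runx1t1, Celf4, Slc32a1 and Gm14204, down to 0.97. Slc32a1, the vesicular GABA transporter, went from 31.3 to 113 CPM. Nearest to Tuba1a were Trappc3 (r = 0.98), Arpc5, Actg1, Rtn1 and Tpgs2, with cytoplasmic actin, Actg1, going from 1007 to 2463 CPM. Nearest to Tubb4b were H2afx (r = 0.97), Pimreg, Prc1, Cdca8 and Cks2. Prc1, which bundles microtubules of the spindle midzone, went from 33.7 CPM in S-phase to 588 CPM in G2/M progenitors. Nearest to Tubb6 were Vrk1 (r = 0.90), Hist1h2bm, Cenpw, Plk4 and Cks2, the last also near Tubb4b. Tubb6 had 233 UMIs in G2/M, 11 in S-phase progenitors, 22 in neurons and 0 in progenitors without cycle markers. Its correlations thus rest mostly on the G2/M sums against the rest. Among the tubulin genes themselves, Tuba1a correlated with Tubb2b at 0.95 and with Tubb3 at 0.95, Tubb4b with Tuba1c at 0.85 and with Tuba1b at 0.82, and Tuba1a with Tuba1b at -0.70.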

How the data were processed

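Single-cell libraries (10x Genomics) of e14.5 MGE were analysed, 2 labelled St18(-/-) (null) and 2 wildtype (WT). The authors deposited raw matrices of UMI counts for all barcodes, without normalization or a cell filter. Per the labels' processing notes they were made with Cell Ranger 5.0.1 on GRCm38, while the file headers name an earlier release. GENCODE M21 (GRCm38) held 99.6% of the gene identifiers, and positions are from there. The genes and lists, and the tests on them, were chosen with earlier results of these data known. The study's limits of 200 genes and 10% mitochondrial UMIs were applied, with a minimum of 3000 UMIs. Scrublet, run through scanpy 1.11.5, scored doublets, and the highest scores, 4.01% of all cells, were left out. Cells were thinned to 3000 UMIs to count fixed marker lists and assign classes, and other cells (erythroid, microglia, vascular, oligodendrocyte precursor) were left out.

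The unthinned UMI counts of a class were added up in each library and fitted with edgeR 4.0.16 in R 4.3.3 (filterByExpr, TMM, glmQLFTest, two-sided, Benjamini-Hochberg over all genes tested). Class comparisons used 24 sums with library as a block, and the genotype comparisons 2 against 2 sums. Replicate numbers follow sample order and pair nothing. On simulated counts with 200 changed genes, all 200 were recovered in the neuron comparison (12100 genes, 9 false calls) and in the genotype comparison in neurons (13546 genes, 5 false calls). The simulated sums had a small fixed spread and no library effect beyond depth and genotype. Recovery there checks the code and does not show the power of the real comparisons. Alternatives were another scaling, DESeq2 1.42.0, no filter, other cell cuts, thinned counts, no block, and each library left out. All 10 genes are named whatever their values. Of each other list, up to 4 genes are named by the largest change between neurons and dividing progenitors among those past the threshold with at least 20 CPM in the higher group, and tubulin genes whenever tested.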

Additional observations from a re-analysis of the deposited data

Results flagged for a closer look

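Among 36 sets of 4 within-library log2 ratios (10 genes by 4 class comparisons, where all 4 libraries had counts), 1 had a library that stood further from the others than Dixon's 95% critical value allows. It was Tubb2a in late against early neurons, where null replicate 1 had a log2 ratio of 1.60 and the other libraries lay between 1.43 and 1.45. Chance flags about 1 in 20 such sets. The direction was the same in all 4 libraries, and the cause was not tested.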

How the results depend on the processing

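Of 696 values of the class comparisons under the alternatives, 643 were unchanged, as were 328 of 384 of the genotype comparisons. A fold change counted as unchanged if it kept its direction and its side of the threshold. A number of genes passing counted as unchanged if it stayed within a ratio of 1.5. For the difference between genotype effects, only the fold changes of Tubb2a and Tubb6 were counted. Of 48 beta-tubulin isotype shares, 38 moved by less than 1 SD when cells were thinned. Dividing progenitors then had 50.6% Tubb5, 11.9% Tubb3 and 7.19% Tubb4b. Alpha-tubulin shares were not in this count. With thinning, that of Tuba1a went from 78.9% ± 1.8 to 81.2% in S-phase and from 66.2% ± 2.4 to 69.0% in G2/M progenitors. Without the library as a block, 2 of the 10 genes passed in late against early neurons. Between 9 and 10 genes passed in the neuron comparison over 16 alternatives, 5 to 10 between the phases, 2 to 7 between late and early neurons and 7 to 9 in progenitors without cycle markers. Leaving out each library in turn gave 10, 7, 5 to 7 and 8 to 9. Between the phases, Tubb2b (main -0.01) was at 0.11 without a filter on low counts, 0.0092 in cells with 5000 UMIs, 0.23 with a cycle sum of at least 5, 0.0013 with a neuron sum of at least 10, 0.00076 without cells with pallial markers, 0.34 with phases by the larger sum and -0.026 to 0.017 without 1 library. Tubb3 was at -0.042 with library totals and -0.086 in thinned cells, Tubg1 at -0.0502 with the larger sum, and Tuba1b in late against early neurons at -0.0044 without a filter. For the genotype, library totals in place of TMM shifted the median of all genes by 0.19 in dividing progenitors and 0.14 in neurons. They gave 0.072 for Tuba1a, 0.0996 for Tuba1b, 0.059 for Tuba1c, 0.050 for Tubb3, 0.11 for Tubb5 and 0.12 for Tubg1 in dividing progenitors, and 0.053 for Tuba1a, 0.019 for Tuba1b, 0.11 for Tubb2b, 0.067 for Tubb3, 0.014 for Tubb5 and 0.056 for Tubg1 in neurons. Relative to these medians all were below 0. In neurons Tubb2b was at 0.0013 in cells with 5000 UMIs and Tubg1 at 0.022 in middle neurons alone, and in late neurons alone Tubb2b was at 0.013, Tubb3 at 0.0089 and Tubg1 at 8.23e-06. In S-phase progenitors alone Tuba1c was at 0.57. Without a filter on low counts 1 gene passed in null against WT in each cell group, Tubb2a in dividing progenitors. None passed there for the difference between the cell groups. Leaving out 1 library gave 0 to 8 genes in dividing progenitors, 0 to 7 in neurons and 0 to 1 for the difference between them (Tubb6 without null replicate 1). The log2 fold changes then ran, in dividing progenitors, from -0.38 to 0.13 for Tuba1a, -0.29 to 0.32 for Tubb2b, -0.45 to 0.14 for Tubb3, -0.68 to 0.11 for Tubb4b, -0.33 to 0.16 for Tubb5 and -0.42 to 0.23 for Tubg1, and in neurons from -0.38 to 0.19 for Tuba1a, -0.010 to 0.21 for Tuba1c, -0.34 to 0.25 for Tubb2b, -0.36 to 0.19 for Tubb3, -0.54 to 0.10 for Tubb4b, -0.34 to 0.090 for Tubb5 and -0.43 to 0.22 for Tubg1. The genotype counts over all genes, 6 in each cell group, were 315 and 269 with DESeq2, 73 and 264 with library totals and 888 and 599 without a filter. The number of genes called between the phases, 3549, was 1195 without the block, 1543 in thinned cells and 5351 by the larger sum. With library totals 36.7% of these were higher in place of 51%, and 58.8% in place of 39.9% in progenitors without cycle markers. No paired analysis was possible because the replicate numbers of the genotypes were given in sample order only and pair no libraries. Erythroid shares without 1 library and Tubb3 by neuron markers were computed after seeing the data. Depth limits Tubb6, and the causes of these changes were not tested.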

Other observations

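The 3179 cells with both cycle and neuron markers, which entered no comparison, held tubulin mRNAs at levels between those of the dividing progenitors and the neurons for every gene named here. Their mean over libraries was 4893 ± 511 CPM (SD, n = 4) for Tuba1a, 1487 ± 184 CPM for Tubb3, 216 ± 34 CPM for Tubb2a, 534 ± 21 CPM for Tuba1b, 256 ± 33 CPM for Tubb4b and 64.9 ± 5.5 CPM for Tuba1c. Tubb6 had 16 UMIs in these cells. It had as many, 16, in only 67 microglia, where the 4 libraries ran from 0 to 46.7 CPM, against 3.56 CPM in dividing progenitors and 0.424 CPM in neurons. Droplets with fewer than 100 UMIs held Tubb6 at 2.43 to 5.55 CPM. These cells are few, and no test was made.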
